A study of Mus musculus with 8 samples.

Results

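The difference in gene expression between regulatory T cells (Treg) and conventional CD4 T cells (Tconv) was measured over 2 genotypes at once, as the main effect of cell subset with genotype as a covariate. All 8 arrays of the series entered it, 4 of Treg and 4 of Tconv, and each subset held 2 wild-type (WT) and 2 NIKtg arrays. Of 7926 named genes tested, 1167 had every Treg array on one side of every Tconv array, 608 of them higher and 559 lower in Treg after quantile normalization.

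The T cells were sorted from mixed marrow chimeras of C57BL/6 background, in which B6.CD45.1 recipients were irradiated with a split dose of 1200 rad and rebuilt with marrow of 2 donors, more than 8 weeks before sorting. The NIKtg donor (NIKtg/CD4Cre/foxp3RFP) carried a Map3k14 transgene at the ROSA26 locus, Cre recombinase under the CD4 promoter and a red fluorescent reporter of Foxp3. The WT donor (B6.Thy1.1/Foxp3RFP) carried the Thy1.1 allele and the same reporter. WT Treg were sorted as RFP+Thy1.1+CD4+GFP- and WT Tconv as RFP-Thy1.1+CD4+GFP-. NIKtg Treg were sorted as RFP+Thy1.1-CD4+GFP+ and NIKtg Tconv as RFP-Thy1.1-CD4+GFP+. All 4 groups thus shared the type of irradiated recipient and the Foxp3 reporter, and the genotypes also differed in Cre, GFP and the Thy1 allele. Whether WT and NIKtg cells came from the same animals is not stated in the labels. CD4-driven Cre acts in developing thymocytes, before Treg and Tconv part, and in CD8 T cells as well. Nothing in the labels says whether arrays of a group came from separate chimeras, so the spread between arrays of a group may be technical. The p-values of the main effect measure this spread together with any difference of the subset effect between genotypes. The additive fit leaves that difference in its residual. Age, sex and pooling of the animals, and the slide, scan or sort day of an array, are not stated in the labels, and a batch was not tested.

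Treg are CD4 T cells that restrain other lymphocytes. Their programme is set by the transcription factor FOXP3, and they depend on interleukin 2, which they bind through the high-affinity receptor chain CD25 and read out through STAT5. They carry CTLA-4, an inhibitory receptor that takes up the ligands of the costimulatory receptor CD28, and several receptors of the tumour necrosis factor (TNF) family.

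Each array detected between 9826 and 10794 probes at a detection p under 0.01. Intensities are given as log2 values after background correction and quantile normalization, and n = 4 arrays for each subset mean. Arrays of the same group correlated between 0.989 and 0.994 over the tested genes, arrays of the same subset but other genotype between 0.942 and 0.973, and arrays of different subsets between 0.923 and 0.963. The first principal component (45.5% of the variance) ran from the NIKtg Treg arrays (30.0 and 24.2) to the NIKtg Tconv arrays (-42.0 and -36.1). The WT arrays lay between them, from -2.84 to 12.6. The second (27.8%) ran from the WT Treg arrays to the WT Tconv arrays. Mean raw intensity ran from 461 and 474 for NIKtg Treg up to 777 for NIKtg Tconv replicate 2, and its part in the results was not tested. All 12 T cell markers with a probe, among them Cd3e, Cd4 and Thy1, were detected on all 8 arrays.

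In either genotype, Treg held more RNA of Foxp3, of the factors Ikzf2 and Ikzf4 and of the receptors Il2ra, Itgae, Nrp1 and Ctla4 than Tconv. They also held more of the interleukin 2 feedback genes Cish and Socs2 and of guanylate-binding proteins. Lypd6b, Pdlim4, Sgk1, App, Klrd1, Xcl1 and Themis were lower in Treg of either genotype. In sorted bulk samples, fewer cells of a type that express a gene and less of its RNA per cell cannot be told apart. In limma's moderated test, 646 genes (8.15% of those tested) passed an adjusted p of 0.05, 396 higher in Treg (5%) and 250 lower (3.15%). Of these, 203 higher and 72 lower genes differed by at least 2-fold. The 608 genes with every Treg array above every Tconv array were 7.67% of those tested, and the 559 below were 7.05%. Among the separated genes, 358 of the higher and 223 of the lower ones also passed the test, 586 did not, and 65 genes passed with overlapping arrays. At least 4-fold differences were found for 58 of the higher and 21 of the lower separated genes. The direction of a separated gene is fixed by how it was chosen and is given as a description. With each array centred on its median in place of quantile normalization, the median difference of all genes moved from -0.001 to -0.294 and the 635 calls split into 189 higher and 446 lower, so that 29.8% of calls were higher in place of 61.3%. The separated genes then numbered 1637, of which 226 were higher and 1411 lower. Counts of higher against lower genes are therefore relative to the quantile scale. Without NIKtg Tconv replicate 2 the test called 321 genes, 234 higher and 87 lower. Without WT Treg replicate 2 it called 367, without NIKtg Treg replicate 2 it called 389 and without WT Tconv replicate 2 it called 419.

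At the edge of the separation rule, St6galnac6 and 9930111J21Rik2 lay just inside it on the higher side and Cse1l on the lower side, each with a gap of 0.001 between the subsets. Nuak2 and Tbc1d5 on the higher side and Strbp and Frrs1 on the lower side lay just outside, with gaps of -0.001 or -0.002. Cse1l differed by -0.13 ± 0.08 (SE), and the adjusted p of these genes lay between 0.073 (St6galnac6) and 0.391 (Cse1l).

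Foxp3, the defining factor of Treg, read 13.48 and 13.57 on the WT Treg arrays and 13.19 and 13.36 on the NIKtg Treg arrays, against 8.05 and 8.82 for WT Tconv and 6.07 and 7.01 for NIKtg Tconv. The subsets were separated by 4.38, the widest gap among the higher genes. Since the cells were sorted on a Foxp3 reporter, this difference of 5.91 ± 0.39 (SE, adjusted p = 0.000274, limma) checks the labels and is no finding. Ikzf4 and Ikzf2 encode Eos and Helios, Ikaros family zinc-finger factors known from Treg. Ikzf4 read 10.16, 10.23, 9.90 and 10.03 for WT Treg 1, WT Treg 2, NIKtg Treg 1 and NIKtg Treg 2, and 6.62, 6.76, 6.19 and 6.82 in the Tconv arrays of the same order. The 4 Treg arrays were close to each other and lay at least 3.08 above every Tconv array. The difference was 3.48 ± 0.14 (SE, adjusted p = 4.38e-05, limma), or 11.2-fold. Ikzf2 was 8.82-fold higher (3.14 ± 0.13 SE, adjusted p = 4.66e-05, limma), and its differences in WT (3.10) and NIKtg cells (3.18) were nearly the same. Pou2f2, which encodes the octamer-binding factor Oct-2, ranged from 9.34 to 9.98 in Treg and from 8.05 to 8.34 in Tconv.

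Id2, an inhibitor of E-protein transcription factors that accompanies effector differentiation, was the member of the list that fell. It read between 8.67 and 10.23 in Treg and between 11.60 and 12.41 in Tconv, a difference of -2.34 ± 0.27 (SE, adjusted p = 0.00236, limma), or 5.08-fold lower. Among the 20 tested members of the transcription factor list, 6 rose and 1 fell, with a median difference of 0.26 against -0.001 over all genes tested. Over all genes tested 5% rose and 3.15% fell, and the counts of this and every later list are to be read against these shares. Gata3 and Nfil3 are counted among the 6 but lost their calls under median centring (adjusted p = 0.31 and 0.093) and without 7 and 6 of the 8 arrays in turn (up to 0.126 and 0.0933). Irf4 (0.82) and Id3 (0.68) did not pass, and Foxo1 (0.25) and Bcl6 (-0.01) stood near 0.

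**Figure D1:**
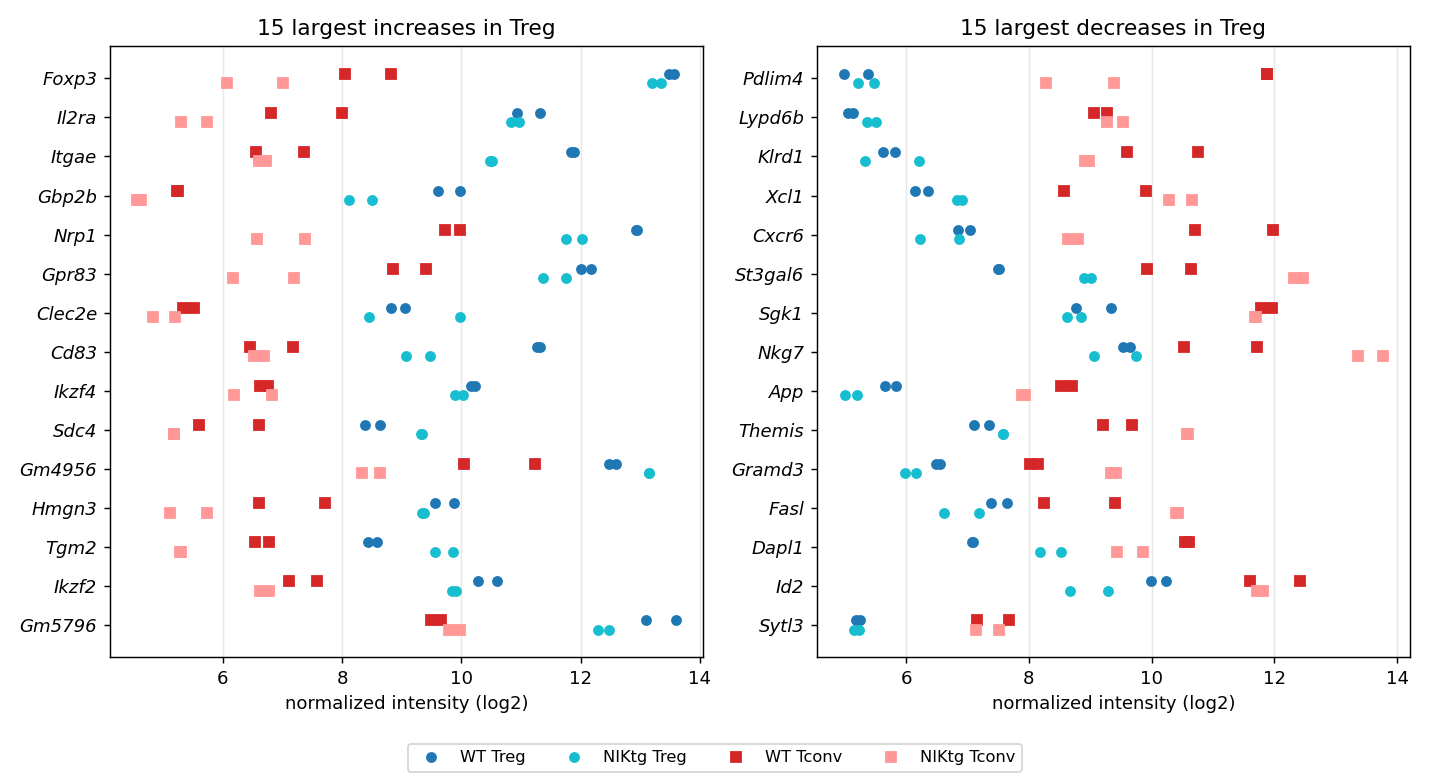
Normalized log2 intensity on each of the 8 arrays (x axis) for the 15 genes with the largest increases (left) and the 15 with the largest decreases (right) in Treg among separated genes past the threshold. Circles are Treg and squares Tconv arrays, dark for WT and light for NIKtg; for Foxp3 all circles lie above 13 and all squares below 9.

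Of 21 tested receptors known from Treg, 12 rose (57.1%, against 5% of all genes tested) and none fell. Upward separation was seen for 13, against 7.67% of all genes, and the median difference was 1.81. Each of the 12 calls held on leaving out any single array, under median centring and with the replicate number as a block. Il2ra encodes CD25, the high-affinity chain of the interleukin 2 receptor. It read 10.93 and 11.32 for WT Treg and 10.83 and 10.97 for NIKtg Treg, and 6.80, 7.99, 5.29 and 5.72 for WT Tconv 1, WT Tconv 2, NIKtg Tconv 1 and NIKtg Tconv 2. The Treg arrays were close to each other while the Tconv arrays were spread, and the gene was detected on 3 of the 4 Tconv arrays. Its difference of 4.56 ± 0.40 (SE, adjusted p = 0.000847, limma) was 23.6-fold. Itgae, the integrin chain CD103 that binds E-cadherin, read 11.89 and 11.85 for WT Treg, 10.49 and 10.52 for NIKtg Treg, and between 6.55 and 7.36 in Tconv. The WT Treg arrays were the higher ones, and the difference was 4.38 ± 0.26 (SE, adjusted p = 0.000165, limma).

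Nrp1, the semaphorin co-receptor neuropilin-1 found on thymus-derived Treg, ranged from 11.75 to 12.95 in Treg and from 6.56 to 9.98 in Tconv. Within Tconv the WT arrays (9.98 and 9.73) stood well above the NIKtg arrays (6.56 and 7.37), so that the subset difference was 3.09 in WT and 4.92 in NIKtg cells (interaction adjusted p = 0.0062, limma). Gpr83, a G protein-coupled receptor known as a Treg marker, showed the same order, with 9.40 and 8.85 for WT Tconv, 6.17 and 7.19 for NIKtg Tconv and values from 11.38 to 12.18 in Treg. Izumo1r, which encodes the folate receptor family member FR4, was 7.8-fold higher in Treg (2.96 ± 0.26 SE, adjusted p = 0.000905, limma).

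Ctla4 ran the other way between genotypes. It read 13.14 and 13.31 for WT Treg, 12.09 and 12.42 for NIKtg Treg, and between 9.88 and 10.30 in Tconv. The Tconv arrays were alike and the WT Treg arrays highest, giving 3.21 in WT and 1.98 in NIKtg cells (interaction adjusted p = 0.0044, limma). Tnfrsf4 and Tnfrsf18 encode the costimulatory TNF receptors OX40 and GITR. Tnfrsf4 was 3.18 higher in WT Treg and 2.10 higher in NIKtg Treg than in the Tconv of the same genotype, and Tnfrsf18 was 2.41 and 1.28 higher. For these 2 genes the interaction passed the threshold too (adjusted p = 0.00598 and 0.0134, limma). Cd83 and Cd86, surface proteins of the antigen-presenting and costimulatory systems, were 3.57 ± 0.38 and 2.15 ± 0.36 (SE) higher. Icos (0.29), Pdcd1 (-0.11), Lag3 (0.28) and Klrg1 (-0.16) did not pass, and their arrays overlapped. Ccr8 (1.06) and Il2rb (0.75) did not pass either.

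Of 9 tested mediators of suppression, 4 rose and none fell, and the median difference was 0.28. Ebi3 encodes a subunit shared by interleukins 27 and 35. It read 9.35 and 9.72 for WT Treg, 8.35 and 8.58 for NIKtg Treg, and between 6.06 and 6.53 on the Tconv arrays, which put every Treg array at least 1.82 above every Tconv array. Nt5e, the ectoenzyme CD73 that makes adenosine, was 2.97-fold higher (1.57 ± 0.17 SE, adjusted p = 0.00183, limma). Fgl2 is counted among the 4 but lost its call without any of 7 arrays in turn (adjusted p up to 0.12) and under median centring. Il10, the anti-inflammatory cytokine, was not shared. It read 7.61 and 6.91 for WT Treg against 5.76 and 4.87 for WT Tconv, and 4.37 and 4.67 for NIKtg Treg against 7.50 and 7.13 for NIKtg Tconv. It was detected on neither NIKtg Treg array and on 1 of the 2 WT Tconv arrays. Treg were thus the higher subset in WT (1.94, in part against background) and at least 2.77-fold lower in NIKtg cells. The interaction term, computed with those background signals, had an adjusted p of 0.000671 (limma). The additive difference was -0.42 ± 0.91 (SE, adjusted p = 0.831, limma).

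Of 30 tested interleukin receptor chains and cytokine signalling genes, 7 rose and 3 fell, with a median of 0.16. Cish and Socs2 encode feedback inhibitors that STAT5 induces after interleukin 2. Cish read 12.34 and 12.68 for WT Treg, 11.99 and 12.14 for NIKtg Treg, 9.74 and 10.21 for WT Tconv, and 8.69 and 8.78 for NIKtg Tconv. The 4 Treg arrays lay at least 1.78 above the highest Tconv array, and the difference was 2.93 ± 0.20 (SE, adjusted p = 0.000305, limma), or 7.62-fold. Socs2 was 2.83 ± 0.50 (SE) higher, and its adjusted p of 0.0157 became 0.0578 without NIKtg Tconv replicate 2. Socs1, a related inhibitor that also acts on interferon signalling, rose 2.16-fold (adjusted p = 0.0077, limma). Stat5a and Ifngr1 are counted among the 7 but lost their calls without any of 7 and 4 arrays in turn, with adjusted p up to 0.12 and 0.057.

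Il7r, the receptor chain for the survival cytokine interleukin 7, fell. It read 12.11 and 12.36 for WT Treg, 12.92 and 12.92 for NIKtg Treg, 13.37 and 13.57 for WT Tconv, and 13.81 and 13.78 for NIKtg Tconv. The groups were separated by 0.45 and the difference was -1.06 ± 0.12 (SE, adjusted p = 0.00211, limma), or 2.08-fold lower. The chains of the TGF-β receptor moved apart. Tgfbr1 rose by 1.21 ± 0.16 (SE, adjusted p = 0.00466, limma; 0.0629 under median centring), and Tgfbr2 differed by -0.77 ± 0.09 (SE, adjusted p = 0.00224, limma; -0.55 with adjusted p = 0.0517 for the mean of its 2 probes). Il18rap (-0.93) is the third that fell, and its call was lost without any of 7 arrays in turn (adjusted p up to 0.0816).

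Of 31 tested interferon response genes, 9 rose (29%, against 5% of all genes tested) and none fell. Upward separation was seen for 11, against 7.67% of all genes. The median was 0.27 with quantile normalization and -0.01 under median centring, where 7 rose. Among the 9 were Gbp2b, Gbp7, Gbp5, Gbp3 and Gbp2, which encode guanylate-binding proteins, GTPases that act against intracellular microbes and respond strongly to interferon-γ. Gbp2b read 9.62 and 9.97 for WT Treg and 8.50 and 8.11 for NIKtg Treg and was detected on none of the 4 Tconv arrays, where its signal lay between 4.55 and 5.25. It was at least 11-fold higher in Treg (adjusted p = 7.87e-05, limma). Gbp7 read 10.89, 10.98, 10.54 and 10.60 in the 4 Treg arrays and 9.79, 9.90, 9.62 and 9.45 in the Tconv arrays, which is 1.06 ± 0.09 (SE, adjusted p = 0.000673, limma). Gbp5 was 1.21 ± 0.11 and Isg20, an RNA exonuclease, 1.12 ± 0.11 (SE) higher, each with an adjusted p of 0.00117 (limma). The antiviral genes Isg15 (-0.19), Ifit3 (-0.51), Oas2 (-0.83), Rsad2 (-0.33) and Irf7 (-0.07) did not pass and their arrays overlapped. Igtp and Usp18 had the largest differences among members that did not pass, and both were higher in Treg. Igtp differed by 0.47 in WT and 2.27 in NIKtg cells, and Usp18 by 0.31 and 1.75. Calls were lost for Gbp2 without NIKtg Tconv replicate 2 (adjusted p = 0.062), for Irf8 without that array or WT Treg replicate 2 (up to 0.0569), and for Irgm2 without any of 7 arrays in turn (up to 0.146).

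RefSeq promoter entries (build GRCm38.p6) were matched to 6550 of the 7926 tested genes, to 485 of the 608 higher and 462 of the 559 lower separated genes. The palindrome TTCNNNGAA, the form of site that STAT dimers bind, was searched in the 250 bases before each start. It reads the same on either strand, and in the sequences shown no match overlaps another. It was present for 7.53% of tested genes, 11.1% of higher and 6.06% of lower separated genes, and 18% of the 161 higher ones with at least a 2-fold difference. Among the 54 lower genes of at least 2-fold the share was 11.1%. The AP-1, KLF and forkhead forms were likewise more frequent in these smaller sets. The AP-1 form TGANTCA was present for 5.13% of tested genes, 7.01% of higher and 4.98% of lower ones. The forkhead form GTAAACA was present for 2.92%, 3.09% and 3.25%, the TCF/LEF form CTTTGAT for 2.7%, 2.06% and 2.6%, and the KLF form GGGTGTG for 8.49%, 9.9% and 9.09%. An NF-kB form was present for 0.473%, 1.03% and 0.216%. Among the 161 higher genes of at least 2-fold, the AP-1 form was present for 11.2%, the KLF form for 14.9%, the forkhead form for 4.97%, the NF-kB form for 2.48% and the TCF/LEF form for 1.86%. Among the 54 lower ones these shares were 11.1%, 16.7%, 7.41%, 0% and 1.85%. All were searched on either strand, and a match is a description of letters only. Single genes were looked up for most of those picked by the naming rule. Others in the text, such as Cd74, Pard6g and Swap70, were not looked up singly. Among those looked up and named in the text, Aldoc, Ccr6, Fgl2, Gbp7, Igtp and Tnfrsf9 on the higher side hold the STAT form. Sgk1, Nkg7 and Sytl3 hold it on the lower side. Upstream sequences are shown as examples for 5 other higher genes and 1 other lower gene that hold it, so that its place can be seen. They run 5′ to 3′ on the strand of the gene and end at the base before the start, with the motif matches in capitals.
Foxp3, chrX:7580233-7580482, plus strand, STAT form 139 bases before the start: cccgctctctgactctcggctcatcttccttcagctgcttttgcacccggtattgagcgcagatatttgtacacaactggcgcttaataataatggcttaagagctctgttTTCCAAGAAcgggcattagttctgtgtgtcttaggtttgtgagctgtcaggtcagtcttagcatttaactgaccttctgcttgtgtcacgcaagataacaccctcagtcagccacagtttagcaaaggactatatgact
Tnfrsf18, chr4:156026072-156026321, plus strand, STAT form 99 bases before the start: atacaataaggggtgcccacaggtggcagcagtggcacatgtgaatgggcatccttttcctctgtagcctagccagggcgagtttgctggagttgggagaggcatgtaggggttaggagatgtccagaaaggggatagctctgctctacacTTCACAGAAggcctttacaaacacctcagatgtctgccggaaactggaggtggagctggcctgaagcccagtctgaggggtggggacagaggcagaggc
Lta, chr17:35205352-35205601, minus strand, STAT form 152 and 16 bases before the start: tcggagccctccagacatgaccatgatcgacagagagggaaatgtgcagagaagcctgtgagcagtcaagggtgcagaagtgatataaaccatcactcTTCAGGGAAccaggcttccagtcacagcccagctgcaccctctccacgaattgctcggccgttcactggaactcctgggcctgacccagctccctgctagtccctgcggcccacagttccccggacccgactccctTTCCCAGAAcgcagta
Gbp5, chr3:142496684-142496933, plus strand, STAT form 245 and 52 and NF-kB form 77 bases before the start: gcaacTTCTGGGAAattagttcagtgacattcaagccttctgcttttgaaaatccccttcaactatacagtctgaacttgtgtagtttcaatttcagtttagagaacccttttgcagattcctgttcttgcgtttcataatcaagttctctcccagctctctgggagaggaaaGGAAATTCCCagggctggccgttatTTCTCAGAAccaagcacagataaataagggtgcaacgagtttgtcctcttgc
Isg20, chr7:78913174-78913423, plus strand, STAT form 73 bases before the start: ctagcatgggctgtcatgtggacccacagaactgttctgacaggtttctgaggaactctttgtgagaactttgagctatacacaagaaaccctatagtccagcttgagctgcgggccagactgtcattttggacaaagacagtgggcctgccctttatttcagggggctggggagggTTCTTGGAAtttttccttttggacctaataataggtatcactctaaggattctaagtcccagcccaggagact
Il7r, chr15:9529877-9530126, minus strand, STAT form 142 bases before the start: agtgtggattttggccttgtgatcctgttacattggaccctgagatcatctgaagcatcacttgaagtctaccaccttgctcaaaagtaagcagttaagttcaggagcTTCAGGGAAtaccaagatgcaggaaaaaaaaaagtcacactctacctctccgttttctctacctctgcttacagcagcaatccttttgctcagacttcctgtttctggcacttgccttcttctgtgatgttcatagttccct
Foxp3 and Isg20 have further entries with other starts, and those hold none of the searched forms.

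Among 22 TNF family ligands and receptors, 4 rose and 2 fell, with a median of 0.30. Lta, the ligand lymphotoxin-α, read between 10.81 and 11.45 in Treg and 9.44, 9.57, 9.82 and 10.21 in Tconv. All Treg arrays lay at least 0.60 above all Tconv arrays, and the difference was 1.35 ± 0.16 (SE, adjusted p = 0.00271, limma). Tnf rose by 0.67 (adjusted p = 0.0217), a call lost without any of 4 arrays in turn (up to 0.0746). Fasl, the death ligand, and Tnfsf14, the ligand LIGHT, differed by -2.41 and -1.38, and their calls were lost without any of 5 and 7 arrays in turn (adjusted p up to 0.0833 and 0.108). Tnfrsf9, which encodes 4-1BB, was separated (1.81) but had an adjusted p of 0.0534.

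Of 24 NF-kB components and inhibitors, 4 rose and none fell, with a median of 0.22. Relb, the subunit of the noncanonical pathway, read between 9.02 and 9.36 in Treg and between 8.51 and 8.77 in Tconv, a difference of 0.52 ± 0.08 (SE, adjusted p = 0.00898, limma) that was 0.51 in WT and 0.53 in NIKtg cells. Under median centring its adjusted p was 0.383, and 1 member rose and 1 fell in the list. Nfkbiz (1.20), which encodes the nuclear inhibitor IκBζ, had an adjusted p of 0.057 without NIKtg Tconv replicate 2. Nfkbia (0.69) and Birc2 (0.41) lost their calls without any of 5 and 8 arrays in turn (up to 0.0737 and 0.102). Birc2 also lost its call for the mean of its probes (adjusted p = 0.635, limma). Map3k14, which encodes NIK itself, did not pass (-0.20 ± 0.14 SE, adjusted p = 0.468, limma). It read 9.61, 9.63, 9.65 and 9.76 in the Treg arrays and 10.20, 10.03, 9.60 and 9.59 in the Tconv arrays, so WT Tconv was the highest group and the NIKtg arrays were not above the WT arrays in Tconv. Whether its probe lies within the transgene is not stated in the labels, so these values do not check the genotype labels.

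Lypd6b, a member of the Ly6 family of membrane-anchored proteins, was detected on all 4 Tconv arrays, at 9.27 and 9.06 in WT and 9.27 and 9.53 in NIKtg cells, and on no Treg array, where its signal lay between 5.05 and 5.50. It was at least 11.8-fold lower in Treg (adjusted p = 7.36e-06, limma), with the widest gap of the lower genes (3.56). Pdlim4, a PDZ-LIM protein of the actin cytoskeleton, was also detected on no Treg array. In Tconv it read 11.88 and 11.88 in WT and 8.27 and 9.39 in NIKtg cells, at least 24.9-fold above the Treg arrays. Sgk1, a serum- and glucocorticoid-induced kinase downstream of phosphoinositide 3-kinase, read 8.77, 9.34, 8.85 and 8.62 in Treg and 11.96, 11.79, 11.71 and 11.69 in Tconv. Its 4 Tconv arrays were close to each other, and the difference was -2.89 ± 0.14 (SE, adjusted p = 8.61e-05, limma), or 7.42-fold.

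App, the amyloid precursor protein, read 5.66, 5.83, 5.19 and 5.00 in Treg, where it was detected on 2 arrays, and 8.52, 8.71, 7.93 and 7.88 in Tconv. The difference was -2.84 ± 0.10 (SE, adjusted p = 1.69e-05, limma). St3gal6, a sialyltransferase that makes selectin ligands, was 8.66-fold lower, and its NIKtg arrays were the higher ones in either subset. Sytl3, which encodes a synaptotagmin-like Rab27 effector of vesicle transport, was detected on no Treg array and was at least 3.14-fold lower.

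Of 25 genes of naive or quiescent T cells, 4 fell and none rose, and the median was -0.22. The median was -0.98 in WT and 0.11 in NIKtg cells, and 16 of the 25 members passed the interaction threshold. Themis, a regulator of T cell receptor signalling in thymocytes, read 7.34, 7.11, 7.57 and 7.57 in Treg and 9.21, 9.68, 10.58 and 10.60 in Tconv, a difference of -2.62 ± 0.19 (SE, adjusted p = 0.0004, limma). Dapl1 differed by -2.39 (adjusted p = 0.0157; 0.0505 without WT Treg replicate 2), with -3.49 in WT and -1.30 in NIKtg cells. Lef1 (-1.29) lost its call without any of 6 arrays in turn (up to 0.0917). Ccr7 (-0.14), Klf2 (-0.53) and Satb1 (-0.51) did not pass, and their arrays overlapped.

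Among 27 effector and helper genes, 6 fell and 2 rose, and the median was -1.34. With genes detected on no array of the dimmer subset set at their bounds it was -1.004. Xcl1, a chemokine for cross-presenting dendritic cells, read 6.35, 6.14, 6.82 and 6.91 in Treg and 8.57, 9.91, 10.66 and 10.28 in Tconv. It was 9.84-fold lower (-3.30 ± 0.29 SE, adjusted p = 0.000905, limma). S100a6, a calcium-binding protein of activated T cells, fell by 0.83 ± 0.12 (SE, adjusted p = 0.00665, limma), and Lgals3, which encodes galectin-3, differed by -1.004 with overlapping arrays (adjusted p = 0.00545, limma). The calls of Nkg7, Fasl, Eomes, Gata3 and Csf1 were each lost without any of 4 to 7 arrays in turn, with adjusted p up to 0.134. For Eomes the call was also lost in the authors' normalized table and without background correction. Gzmk, a granzyme, stood at 12.29 and 11.66 for NIKtg Tconv and between 4.95 and 6.22 on the other 6 arrays, and its main effect (-3.37) had an adjusted p of 0.115 (limma).

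Of 19 homing receptors and integrins, 2 rose (Itgae and Ccr6) and 3 fell (Cxcr6, S1pr4 and Gpr183), and the median was -0.15. Cxcr6, the receptor for the chemokine CXCL16, read 6.84, 7.04, 6.22 and 6.86 in Treg and 10.70, 11.98, 8.80 and 8.63 in Tconv. The difference was -3.29 ± 0.50 (SE, adjusted p = 0.00821, limma), -4.40 in WT and -2.17 in NIKtg cells. Ccr6, the receptor for CCL20, was 3.09 ± 0.54 (SE) higher, with an adjusted p of 0.0156 that became 0.0604 without NIKtg Tconv replicate 2. S1pr4 (-0.75) and Gpr183 (-0.84) each lost their calls without any of 6 arrays in turn (up to 0.0815 and 0.134).

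Of 13 tested CD8 and NK cell markers, 5 fell and none rose, and the median was -2.13. The median was -0.84 in WT and -3.35 in NIKtg cells, and 10 of the 13 members passed the interaction threshold. Klrb1c, counted among the 5, was detected on the 2 WT Tconv arrays only. Klrd1, the lectin-like receptor chain CD94 of NK and cytotoxic cells, read 5.61, 5.82, 5.33 and 6.21 in Treg, with detection on 2 arrays, and 9.60, 10.76, 8.98 and 8.92 in Tconv. It was 14.1-fold lower (-3.82 ± 0.37 SE, adjusted p = 0.00122, limma). Of the defining markers, Cd8a and Ncr1 were detected on no array, and Cd8b1 was detected on all 8 without a call (0.16). Summed over the list, log2 intensity ranged from 12.99 to 13.25 in Treg and from 13.59 to 16.21 in Tconv. The calls of Nkg7, Eomes and Klrb1c were lost without any of 5, 7 and 6 arrays in turn (up to 0.134), while those of Klrd1 and Xcl1 held without any single array. With the replicate block Nkg7, Eomes and Klrb1c lost their calls too. Eomes and Klrb1c also lost theirs in the authors' normalized table, without background correction, with an offset of 50 and without a detection filter. The part of cytotoxic-type cells in the Tconv sort in these differences was not tested.

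Of 8 tested B cell and plasma cell markers, 6 rose and none fell, with a median of 1.48, and all 6 calls held without any single array and under median centring. Cd79b, a signalling chain of the B cell receptor, read 9.06, 8.96, 8.49 and 8.59 in Treg and 6.21, 6.36, 5.61 and 5.78 in Tconv. The difference of 2.78 ± 0.09 (SE, adjusted p = 1.69e-05, limma) was 2.72 in WT and 2.84 in NIKtg cells. Its partner chain Cd79a was detected on 1 of 8 arrays, Ms4a1 (CD20) on 1, and Pax5, Ebf1, Cr2 and Vpreb3 on none. The 2 tested members that did not pass were Cd22 and Jchain. Cd22 was detected on 7 arrays, and its difference was 0.92 in WT and -2.99 in NIKtg cells. Jchain was detected on all 4 Treg arrays and 1 Tconv array. Cd74, the invariant chain of MHC class II, ranged from 10.55 to 11.78 in Treg and from 8.49 to 10.44 in Tconv, and H2-Aa, H2-Ab1 and H2-Eb1 were 1.29, 1.34 and 1.84 higher with overlapping arrays. Summed intensity over the list ranged from 11.85 to 13.22 in Treg and from 10.23 to 11.73 in Tconv (log2). Of 12 tested myeloid and dendritic cell markers 1 rose (Ctss, 1.00, with an adjusted p of 0.0583 in limma under median centring). Of the 24 with a probe, Ctss, Lyz1, Lyz2, Vcam1, Siglech and Cst3 were detected on all 8 arrays. Another 10, among them Cd14, Itgam and Itgax, were detected on none. Summed intensity over this list ranged from 12.90 to 13.14 in Treg and from 12.25 to 12.36 in Tconv (log2), without overlap. The part of myeloid cells in the sorts was not tested. The 4 erythroid and platelet markers and 3 stromal and epithelial markers tested gave 0 calls in limma. Their summed intensities ranged from 7.05 to 8.49 and from 9.38 to 10.01 in Treg, against 7.70 to 8.26 and 8.87 to 10.18 in Tconv.

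Among 34 T cell receptor signalling genes, 1 rose (2.94%) and 3 fell (8.82%), against 5% and 3.15% of all genes. Their median was -0.05. Cd4, the coreceptor used as a gate for all groups, read 7.38, 7.34, 7.54 and 7.06 in Treg and 8.77, 8.19, 8.01 and 8.24 in Tconv. The difference of -0.97 ± 0.17 (SE) had an adjusted p of 0.016 (limma), which rose above the threshold without WT Treg replicate 1 or 2, NIKtg Treg replicate 2 or NIKtg Tconv replicate 2 (up to 0.062). Grap2 (-0.75) and Dusp1 (0.63) lost their calls without any of 6 and 7 arrays in turn (up to 0.111 and 0.109). Thy1, on which the genotypes were gated, read 13.81, 14.12, 14.32 and 14.09 in Treg and 14.32, 14.34, 14.28 and 14.32 in Tconv, with an adjusted p of 0.301 (limma).

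Of 29 cell cycle genes, 1 fell (3.45%, against 3.15% of all genes tested), and the median was -0.23. This gene, Stmn1 (-1.04), lost its call without NIKtg Treg replicate 2 or NIKtg Tconv replicate 2 (adjusted p up to 0.0552, limma). Of 14 glycolysis genes, 3 rose, Aldoc by 1.09 ± 0.10 (SE, adjusted p = 0.00093, limma), Slc2a3 by 0.84 and Tpi1 by 0.52. Only the call of Aldoc, an aldolase, held under median centring, where those of Slc2a3 and Tpi1 had adjusted p of 0.138 and 0.355. For the mean of its probes, Tpi1 had an adjusted p of 0.44 (limma). Of 21 apoptosis regulators, 3 rose (Casp8, 0.52; Bad, 0.50; Birc2, 0.41) and 1 fell (Fasl), and each of these calls was lost without some arrays in turn (adjusted p up to 0.102). Under median centring Casp8 (0.21), Bad (0.19) and Birc2 (0.11) had adjusted p of 0.28, 0.408 and 0.585, and with the replicate block 0.0512, 0.054 and 0.0595. The mean of the Birc2 probes had an adjusted p of 0.635 (limma). None of 30 ribosomal protein genes was called, and their median was 0.02. In 6 more lists the medians of WT and NIKtg cells also stood on opposite sides of 0, at 0.45 and -0.07 for the TNF family, 0.09 and -0.87 for homing receptors, 0.16 and -0.21 for T cell receptor signalling, 0.01 and -0.29 for the cell cycle, 0.11 and -0.21 for T cell markers and -0.06 and 0.09 for ribosomal proteins. The shares of called genes, next to the 5% higher and 3.15% lower of all genes tested, are shown by list in the bar plot.

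**Figure D2:**
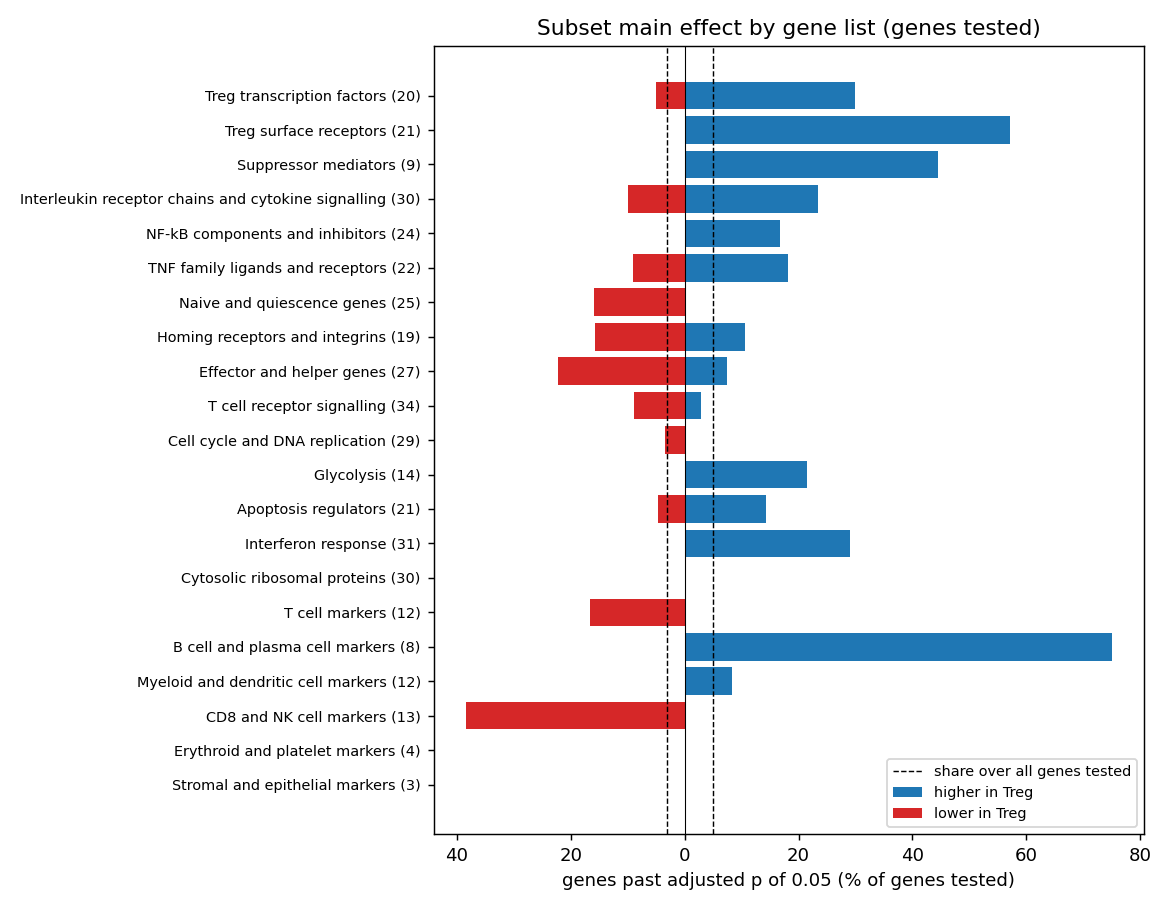
Share of tested genes past an adjusted p of 0.05 (x axis, %) in each of the 21 gene lists, with the number tested in brackets; blue bars to the right are higher and red bars to the left are lower in Treg. Dashed lines give the share over all 7926 genes, 5% higher and 3.15% lower, against 57.1% higher for Treg surface receptors and 38.5% lower for CD8 and NK cell markers.

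Swap70 is a guanine nucleotide exchange protein of B cells and mast cells, and Src is the founding Src family kinase. Sdc4 is the heparan sulphate proteoglycan syndecan-4. These genes were not among the called members of the gene lists used here. Whether they belong to published Treg signatures was not checked. Src read 7.44, 7.77, 7.88 and 7.34 in Treg and was detected on no Tconv array, where its signal lay between 4.94 and 5.46, so that it was at least 4.05-fold higher. Sdc4 read 8.38 and 8.63 for WT Treg, 9.33 and 9.34 for NIKtg Treg, and 5.59, 6.61, 5.18 and 5.17 in Tconv, with detection on 2 Tconv arrays. Swap70 was 7.99-fold higher (3.00 ± 0.17 SE, adjusted p = 0.000124, limma). Clec2e, a C-type lectin-related gene, read 8.83, 9.05, 9.98 and 8.45 in Treg and was detected on no Tconv array, which gave at least 11.2-fold. Sh3bgrl2 was likewise at least 5.57-fold, Tlcd5 at least 4.7-fold and Wfdc2 at least 2.36-fold higher. Swap70, Sh3bgrl2 and Tlcd5 were picked after their values were seen. In all, 40 separated genes were detected on every Treg array and no Tconv array, and 18 on every Tconv array and no Treg array.

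For separated genes the median difference was 0.61 in WT and 0.73 in NIKtg cells on the higher side, and -0.43 and -0.46 on the lower side. The genes most alike in the genotypes, among those past the threshold with a difference over 2, were Ikzf4 (3.51 in WT and 3.46 in NIKtg), Ikzf2, Cd79b and Sgk1 (-2.82 and -2.96), all detected on all 8 arrays. The ranking also took 6 genes with signal not above background on part of the arrays, whose likeness rests in part on that signal. App was detected on neither NIKtg Treg array and was at least 4.17-fold lower there, against a difference of -2.87 in WT. Scamp1 was detected on neither NIKtg Tconv array and was at least 4.9-fold higher in NIKtg Treg, against a difference of 2.57 in WT. Lypd6b, Sytl3, Wfdc2 and Src have only bounds in either genotype. In WT and NIKtg cells, Lypd6b was at least 11.9-fold and 11.8-fold lower and Sytl3 at least 3.54-fold and 2.8-fold lower, while Wfdc2 was at least 2.24-fold and 2.49-fold and Src at least 3.91-fold and 4.19-fold higher. Over all tested genes the interaction of subset and genotype passed the threshold for 3106 (39.2%), 23% with a positive and 16.1% with a negative term for NIKtg minus WT, and it did so for 324 of the 1167 separated genes (27.8%). Without NIKtg Tconv replicate 1 the interaction passed for 2005 genes. Subset accounted for 39% of the summed squares over genes, genotype for 18.5%, their interaction for 31.5% and the spread between replicates for 11%. Across genes, which are not independent, the WT and NIKtg differences correlated with Pearson's r of 0.11 and Spearman's rho of -0.09, and the 2 sets of 4 arrays share no array but were normalized together.

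**Figure D3:**
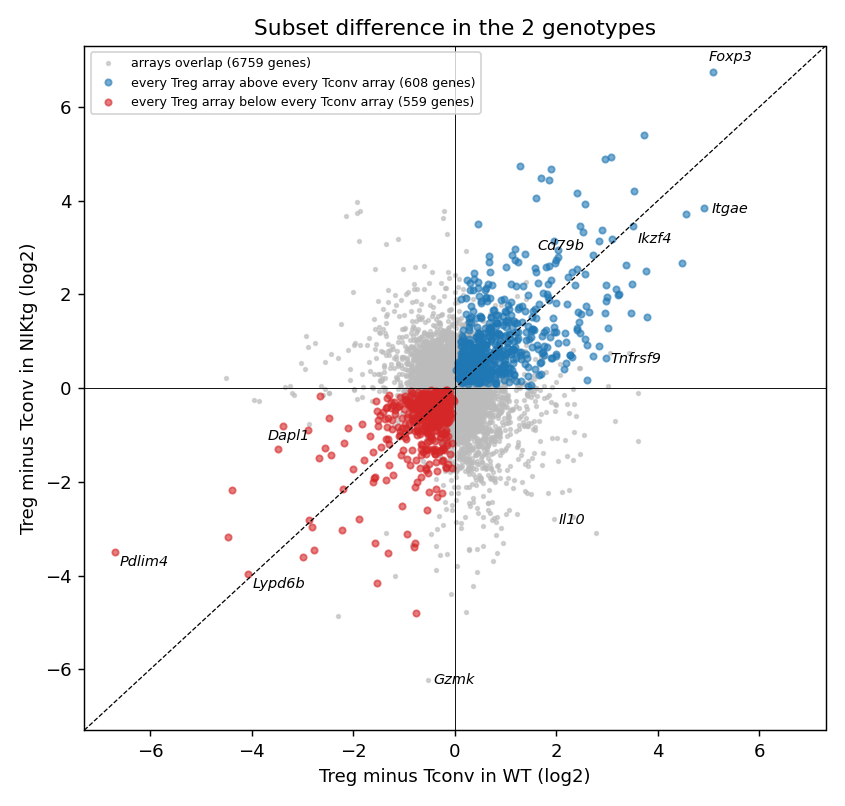
Treg minus Tconv (log2) in WT cells (x axis) and in NIKtg cells (y axis) for the 7926 tested genes, with the 608 higher (blue) and 559 lower (red) separated genes and the line of equal difference dashed. Ikzf4 (3.51 and 3.46), Cd79b and Lypd6b (with only background signal in Treg) lie on or near the line, Pdlim4 and Tnfrsf9 away from it, and Il10 and Gzmk, each with background signal on part of its arrays, among the genes with overlapping arrays.

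To read each genotype's calls on arrays that had no part in them, the subsets were compared separately in the 4 WT and the 4 NIKtg arrays. The WT fit called 1701 genes (21.5%), 816 higher and 885 lower in Treg, and the NIKtg fit 2799 (35.3%), 1598 higher and 1201 lower. Of the 816 higher in WT, 49.4% had both NIKtg Treg arrays above both NIKtg Tconv arrays, against 43.1% of all genes, and 33.5% had them apart on the opposite side, against 31.2%. Of the 885 lower in WT, 29.3% were apart on the same side in NIKtg cells, against 31.2% of all genes, and 47.6% on the opposite side, against 43.1%. The share grew with the size of the difference in the higher genes. It was 71.9% for the 89 genes at least 4-fold higher in WT and 83.3%, or 20 of 24, for those at least 8-fold higher. For genes lower in WT it was 47.9% of 48 at 4-fold and 6 of 14 at 8-fold, and the last point holds few genes. Read the other way, 31.5% of the 1598 genes higher in NIKtg Treg were apart on the same side in WT, against 27.5% of all genes, and 37.7% on the opposite side, against 38.7%. Of the 1201 lower ones, 27.3% were on the same side, against 38.7%, and 41.2% on the opposite side, against 27.5%. At the larger size, 67.9% of 106 genes at least 4-fold higher in NIKtg Treg were apart on the same side in WT, as were 32.4% of 105 lower ones. Without WT Treg replicate 1 or 2 or WT Tconv replicate 1 the WT fit called 458, 422 and 1015 genes, and without NIKtg Tconv replicate 1 or 2 the NIKtg fit called 811 and 1144.

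**Figure D4:**
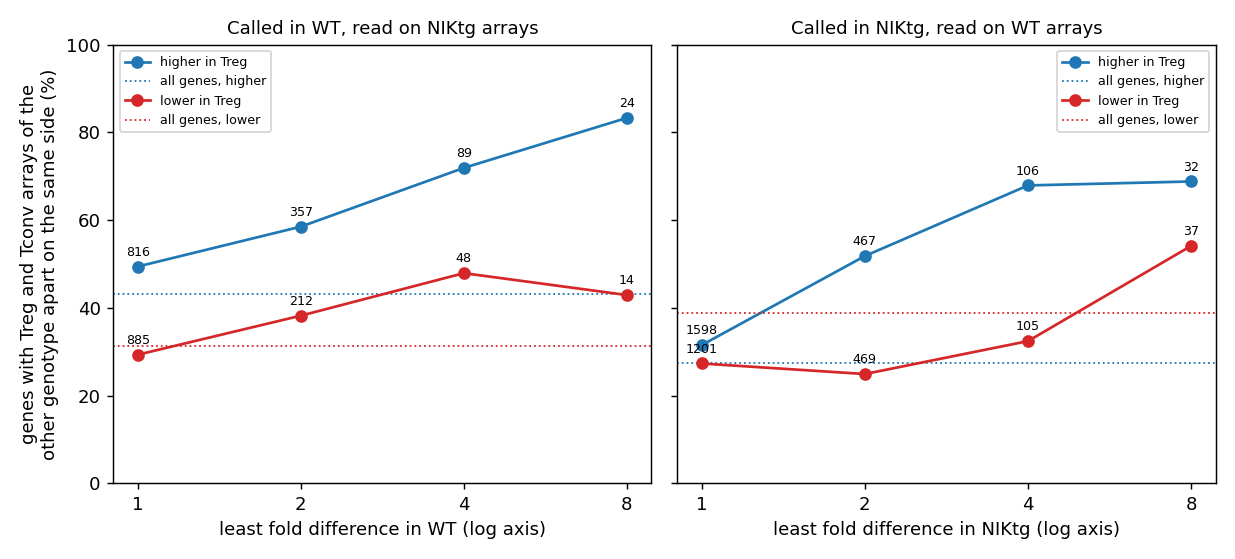
Share of genes called in one genotype (left, WT; right, NIKtg) whose Treg and Tconv arrays of the other genotype lie apart on the same side (y axis, %), by the least fold difference in the calling genotype (x axis, log scale), with the number of genes beside each point. Dotted lines give the share over all genes; the higher genes of WT climb from 49.4% to 83.3% against 43.1%.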

How the data were processed

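RNA of sorted T cells was measured on 8 one-colour Illumina arrays, 2 for each of 4 groups. Linear probe intensities without normalization were deposited, each with a detection p-value, per the file headers; the submitters' processing notes name GenomeStudio 2010.1. A second deposited table holds the authors' normalized intensities, used as an alternative. Log2 values were computed here from the deposited intensities.

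Background was corrected with limma 3.58.1 in R 4.3.3 (nec, offset 16, 798 negative controls inferred from the detection p), and log2 values were quantile normalized. Probes had to reach a detection p under 0.01 on 2 or more arrays (11526 did, of which 10819 were named through the platform annotation and 707 unnamed ones were left out). The brightest probe stood for a gene, which gave 7926 genes. Of 306 separated genes with several kept probes, 35 (11.4%) had another probe with a difference of opposite sign. The other probes of Foxp3 gave 2.05 to 6.17, and those of Itgae 2.14 to 4.47. Of 25697 probes, 23978 had 1 symbol, 0 several and 1719 none listed.

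The main effect came from limma (lmFit and eBayes, two-sided) with subset and genotype as additive terms, 5 residual degrees of freedom, a prior SD of 0.187 (log2) and a prior weight of 2.35 degrees. Every adjusted p is Benjamini-Hochberg over all 7926 genes, with a threshold of 0.05. The interaction and the differences within a genotype came from a fit with 1 coefficient per group, and separate fits of 4 arrays gave the calls read on the other genotype. A gene detected on no array of its dimmer subset has only a bound: the brighter subset's mean was set against the mean, per array, of the higher of the lowest detected signal and the gene's own. The number of arrays limits the precision.

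Genes printed are a subset of a rule: Foxp3, Map3k14, Cd4, Thy1, the 15 largest increases and decreases among separated genes past the threshold, the 5 widest gaps on each side, genes nearest the rule, the 6 largest interactions in each direction among separated genes, the 10 most alike in the genotypes, and up to 6 members of each list past the threshold in each direction and 2 not past it. Others named with a value, such as list members beyond these, were chosen after values were seen. The separation rule, the 21 lists and the tests were chosen with earlier results of these data known. On simulated data of the same 7926 genes the main-effect fit recovered 91% of 100 genes changed by 1 and 99% of 100 changed by 2 (log2), with 13 false calls. The simulated noise was the spread within groups, and the data given to this fit held no genotype effect and no interaction. In the real arrays the interaction held 31.5% of the summed squares, so these rates do not give the recovery there. Alternatives were other normalizations, background corrections, filters and probe rules, trended robust moderation, the replicate number as a block, 1 coefficient per group, a 2-fold minimum and each array left out in turn. Outliers within groups of 2 arrays were not searched.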

Additional observations from a re-analysis of the deposited data

Results flagged for a closer look

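The subset difference was tested for a change between genotypes (interaction term, limma, adjusted over 7926 genes), and among the 1167 separated genes it differed for 324. The 6 largest positive and 6 largest negative terms among these separated genes follow as NIKtg difference minus WT difference (log2).

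Positive terms were 3.44 for Ecm1, which encodes an extracellular matrix protein, 3.21 for Pdlim4, 3.03 for Pard6g, a cell polarity gene, 2.78 for Ccr6, 2.78 for Gm4956, a numbered gene model, and 2.58 for Tgm2, a transglutaminase, with adjusted p between 0.000338 (Tgm2) and 0.00399 (Gm4956). Ecm1 read 10.67 and 10.43 for WT Treg, 11.96 and 12.38 for NIKtg Treg, 9.38 and 9.14 for WT Tconv and 6.97 and 7.91 for NIKtg Tconv. Treg were thus 1.29 higher in WT and 4.73 higher in NIKtg cells. Pard6g had nearly equal subsets in WT (0.46) and a difference of 3.49 in NIKtg cells. Pdlim4 was detected on no Treg array, so its term rests on the Tconv level, which was higher in WT. Tgm2 was detected on neither NIKtg Tconv array, where the difference is at least 18-fold.

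Negative terms were -4.03 for Crtam, an adhesion receptor of cytotoxic-type T cells, -2.64 for Nkg7, a cytotoxic granule protein, -2.59 for Pde7a, a cyclic AMP phosphodiesterase, -2.52 for Samd3, -2.43 for Rgs1, a regulator of chemokine receptor signalling, and -2.33 for Tnfrsf9, with adjusted p between 0.000322 (Crtam) and 0.00837 (Nkg7). Crtam was detected on no Treg array and read 5.84 and 5.71 for WT Tconv and 9.59 and 9.09 for NIKtg Tconv. Samd3 was detected on the 2 NIKtg Tconv arrays only, and Pde7a on neither NIKtg Treg array, so their terms rest in part on background signal. Rgs1 read 13.10 and 13.25 for WT Treg, 13.05 and 13.04 for NIKtg Treg, 10.01 and 11.15 for WT Tconv and 12.96 and 12.80 for NIKtg Tconv, so the Treg arrays were alike and the Tconv groups apart. Tnfrsf9 was 2.97 higher in WT Treg and 0.64 higher in NIKtg Treg than in the matching Tconv.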

How the results depend on the processing

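With 4 arrays a subset and 2 a group, array number limits the precision, and signal over background limits genes detected on part of the arrays. The 646 calls of the main effect (396 higher, 250 lower) numbered 2169 (1130 and 1039) with 1 coefficient per group, which takes the interaction out of the residual, and 275 (203 and 72) with a 2-fold minimum. Median centring gave 189 higher and 446 lower calls, and 226 higher and 1411 lower separated genes in place of 608 and 559. With the replicate block the calls were 457, 311 higher and 146 lower. Deviations of same-numbered arrays correlated between -0.019 and 0.143, so the numbers were not taken to pair the arrays. Leaving out 1 array gave 321 to 494 calls, 234 to 322 higher and 87 to 172 lower, and 1290 to 1669 separated genes. For the interaction (3106) it gave 2005 to 3109, for the separate WT fit (1701) 422 to 1589 and for the NIKtg fit (2799) 811 to 3063. The total counts stayed within 1.5 times the main ones under the other alternatives. All 30 largest changes kept their direction under the 17 or 18 alternatives that tested each, and all but Gm4956, Nkg7, Fasl and Dapl1 kept their calls. Genes that changed sign passed the threshold under neither setting. Under median centring these were 9930111J21Rik2 (-0.069), Eif1a (-0.105), Poglut1 (-0.115), Tbc1d5 (-0.163), Lag3 (-0.061), Rpl22 (-0.094), Rps7 (-0.044) and Acta2 (-0.029). Leaving out 1 array moved Lag3 between -0.433 and 0.68 (below 0 without WT Treg replicate 1 or WT Tconv replicate 2) and Il10 between -1.078 and 0.124 (above 0 without NIKtg Treg replicate 1 or NIKtg Tconv replicate 1). The cause was not tested.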
